A study of Mus musculus with 20 samples.

Results

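Sox4, Sox5, Sox6, Sox7, Sox9, Sox10, Sox11, Sox12 and Sox13 were followed in NMuMG cells, an epithelial line from the normal murine mammary gland, during epithelial-mesenchymal transition (EMT), tumor growth and manipulation of the long noncoding RNA Platr18. These 9 genes were picked by name from the 54986 genes of the deposited table, for values already known from it, so their own differences are given as descriptions, without p-values. Of the 9, 6 reached 1 count per 1000000 reads (CPM) in at least 2 of the 20 libraries (Sox4, Sox6, Sox9, Sox10, Sox12 and Sox13), as did 17106 genes in all. Sox5, Sox7 and Sox11 did not, and neither did any of 11 other Sox family genes.

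Sox proteins are transcription factors that bend DNA through a shared high-mobility-group (HMG) box and fall into groups with like sequences and roles. The SoxE factors Sox9 and Sox10 act in neural crest, cartilage and glia, and Sox9 also in mammary progenitors. The SoxC factors Sox4, Sox11 and Sox12 act in neuronal and mesenchymal progenitors, Sox4 being a known TGFβ target in mammary cells, the SoxD factors Sox5, Sox6 and Sox13 lack a transactivation domain of their own and modulate other Sox factors, and the SoxF factor Sox7 acts in endothelium.

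Each of 10 conditions had 2 libraries of RNA from cells in culture, and nothing in the labels says whether the 2 came from separate cultures, so the spread may be technical. One set held unmodified NMuMG cells, NMuMG cells treated with TGFβ, NMuMG cells carrying an shRNA to hnRNP E1 (gene Pcbp1; E1KD), and cultured cells recovered after E1KD cells were injected into the mammary fat pad of NOD/SCID mice, from the primary tumor (M1P) or from lung metastases (L1P). The other set held NMuMG cells with an empty vector, Platr18 overexpression clones 12 and 16, which are single clones, and E1KD cells that also expressed either a scrambled shRNA (E1KD SCR) or an shRNA to Platr18 (E1KD Platr18 KD). M1P and L1P also carry the hnRNP E1 shRNA, and the immunodeficient hosts keep innate immune cells. Depth was 50.8 to 60.0 M (units of 1000000 reads) in the first set and 63.0 to 147.3 M in the second, so that 3 reads were worth 0.05 to 0.0591 CPM and 0.0204 to 0.0477 CPM. Levels were not compared between the sets, since Pcbp1 had 287 and 312 CPM in NMuMG but 32.3 CPM in both empty vector libraries. Pcbp1 had 16.6 and 14.2 CPM in E1KD and 3.28 and 3.46 CPM in E1KD SCR. Platr18, listed under Lncenc1, had 3092 and 3096 CPM in clone 12, 813 and 820 CPM in clone 16, and 0.136 and 0.17 CPM in E1KD Platr18 KD. It had 3.68 and 3.06 CPM with the empty vector and 2.92 and 3.1 CPM in E1KD SCR, so it was not higher in E1KD SCR. In the first set it had 1.24 and 1.45 CPM in NMuMG and 17.9 and 14.6 CPM in E1KD. E1KD replicate 1 stood apart: its values exceeded those of replicate 2 by a median of 0.29 on the log2 scale, and no other pair differed by more than 0.07 in size.

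In NMuMG, 7 of 12 epithelial markers had at least 1 CPM (summed level 3109 to 3165 CPM), while Epcam and Cldn7 had at most 3 reads in each library of every condition. Mesenchymal markers summed to 598 to 617 CPM in NMuMG, 1404 to 1619 CPM after TGFβ and 1659 to 2371 CPM in E1KD, and were called for 6 higher and 1 lower of 8 after TGFβ and 5 higher in E1KD. Adipocyte markers summed to at most 1.25 CPM and endothelial markers to at most 5.6 CPM in any library. In bulk RNA, fewer cells of a type and less RNA per cell cannot be told apart.

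The beginnings of the HMG boxes show how far the 6 measured members differ in this shared domain. The 45 coding bases from the conserved arginine codon on are given 5′ to 3′ from the GENCODE M21 transcripts (GRCm38), and capitals mark bases that differ from Sox9. In Sox10 6 bases differ, in Sox13 8, in Sox4 and Sox12 10 each, and in Sox6 12.
Sox9: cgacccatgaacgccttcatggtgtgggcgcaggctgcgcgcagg
Sox10: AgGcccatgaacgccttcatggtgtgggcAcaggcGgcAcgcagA
Sox4: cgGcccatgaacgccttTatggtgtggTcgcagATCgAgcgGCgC
Sox12: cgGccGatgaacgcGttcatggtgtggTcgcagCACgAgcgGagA
Sox6: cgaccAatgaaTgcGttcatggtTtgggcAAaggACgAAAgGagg
Sox13: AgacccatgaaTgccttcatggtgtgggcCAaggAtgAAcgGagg

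All of these stretches are exonic. They lie at chr11:112782903-112782947 on the plus strand (exon 1 of 3), and on the minus strand at chr15:79163357-79163401 (exon 2 of 4), chr13:28952797-28952841 (exon 1 of 1), chr2:152397531-152397575 (exon 1 of 2), chr7:115489718-115489762 (exon 15 of 17) and chr1:133385521-133385565 (exon 11 of 13). Over the 237 bases of the whole box, Sox9 and Sox10 shared 83.1%, Sox4 and Sox12 85.2%, Sox4 and Sox11 89.5%, and Sox6 and Sox13 81.4%, against 57.4% for Sox6 with Sox9. The short stretch does not follow the groups in full, since Sox13 differed from Sox9 at fewer of its bases than Sox4 did but shared less of the whole box (61.2% against 71.7%). How the authors' counting divided reads between such copies was not tested. Sox11 had at most 2 reads in any library, and Sox4 had 8061 to 19954.

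Sox6 and Sox12 were the members called in E1KD, with opposite directions, and the bases upstream of their first exons are shown for that reason. The sequences are RefSeq promoter windows (GRCm38.p6), minus strand, limited to bases outside the GENCODE transcripts. Capitals mark matches, on either strand, to CAGGTG (the E-box bound by Snail and Zeb factors), CAGAC (the Smad-binding element) or ACAANG (a Sox-type element).
Sox6, chr7:116038797-116038994: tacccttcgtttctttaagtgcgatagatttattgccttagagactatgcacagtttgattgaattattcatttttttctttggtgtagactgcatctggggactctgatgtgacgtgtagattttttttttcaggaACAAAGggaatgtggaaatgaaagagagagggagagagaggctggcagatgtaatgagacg
Sox12, chr2:152398064-152398296: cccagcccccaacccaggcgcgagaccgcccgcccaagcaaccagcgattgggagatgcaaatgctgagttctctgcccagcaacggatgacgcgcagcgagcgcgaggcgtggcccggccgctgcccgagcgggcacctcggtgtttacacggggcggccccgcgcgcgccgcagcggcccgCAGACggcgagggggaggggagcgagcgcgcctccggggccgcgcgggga

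The RefSeq table lists 6 windows for Sox6, and the one shown is at the 5′ end of the gene. Neither 250-base window shown held the E-box, which 17.2% of 32851 RefSeq promoters of that length did. Another Sox6 window, chr7:116031048-116031297, held 1 E-box and 2 Smad-binding elements, and the other windows held 0 to 4 Sox-type elements. Both windows shown held 1 Smad-binding element, as did 42.2% of promoters with at least 1, although that of Sox6 lay in the part not printed. The Sox6 window shown also held 1 Sox-type element, found in 36.3% of promoters. A match is only a match of letters.

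**Figure D1:**
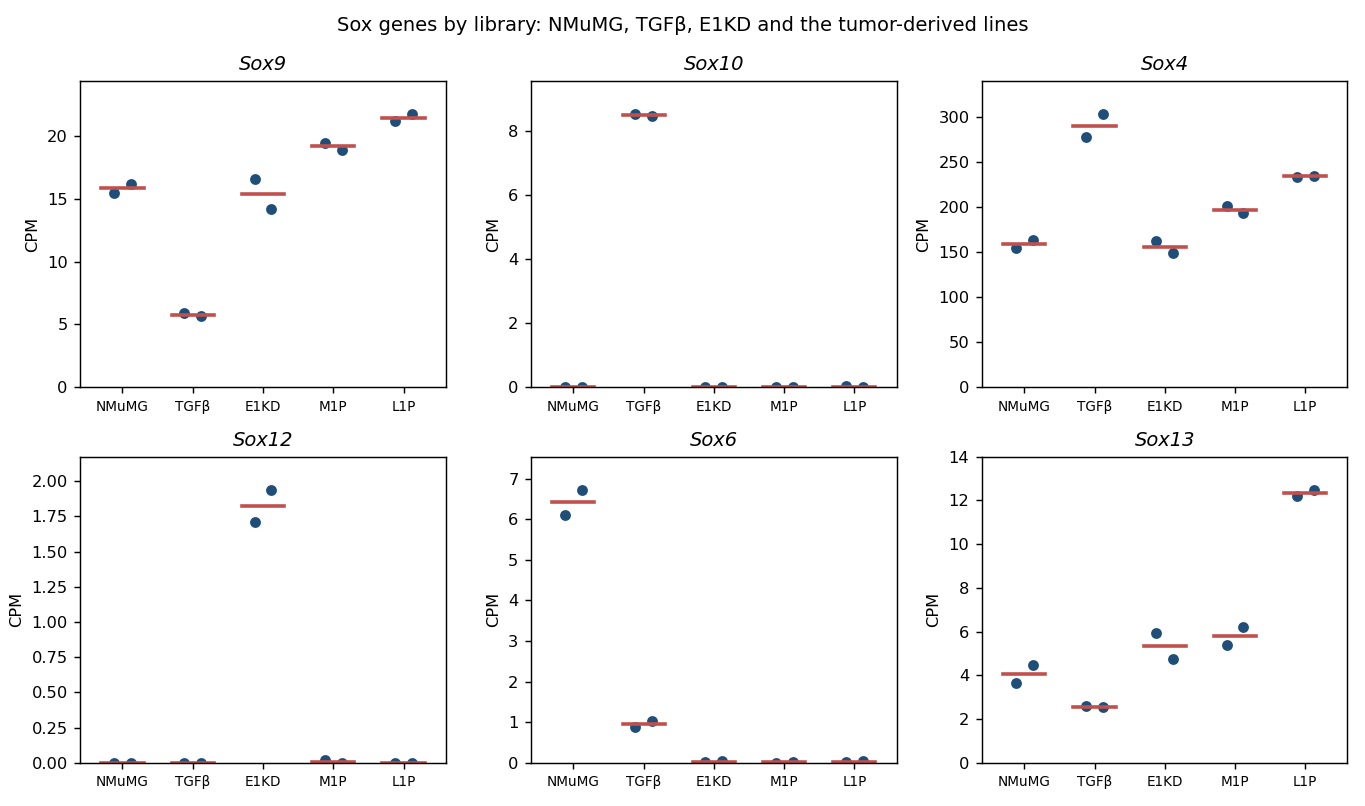
CPM (linear axis from 0) of the 6 measured Sox genes in each library of NMuMG, TGFβ, E1KD, M1P and L1P. Points are libraries and lines the means of 2; Sox10 was at 8.45 and 8.53 CPM after TGFβ and Sox12 at 1.71 and 1.94 CPM in E1KD, each with at most 1 read in any other library of the set, and Sox6 was highest in NMuMG.

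Sox10, the SoxE factor that specifies neural crest glia and melanocytes (chr15:79154908-79165240, minus strand), was read after TGFβ and almost nowhere else. It had 8.53 and 8.45 CPM (511 and 507 reads) in the TGFβ libraries and 0 CPM in both libraries of NMuMG, E1KD and M1P. One L1P library had 1 read. The TGFβ libraries stood above all others of the set without overlap, at least 155-fold above NMuMG against a floor of 3 reads per library. On the log2(CPM + 1) scale used for all differences here, which understates changes of low genes, the difference was 3.25 (SE 0.0372). Each SE here and below shares the replicate spread of all 10 conditions, so it is not the spread of the groups compared. A gene was called where its unadjusted p from limma was under 0.001 and its log2 fold change was 1 or more in size. Groups of 2 libraries that do not overlap are common here, at 61.0% to 80.0% of all genes tested across the comparisons made within a set. For the pair of clones against the empty vector, which sets 4 libraries against 2, the share was 35.1%. Of the 6 members tested, 3 were called between TGFβ and NMuMG (Sox10 higher, Sox6 and Sox9 lower), beside 13.5% of all genes tested. Sox10 passed the filter through the TGFβ libraries alone. The size needed for its call followed from that filter, so the count of 3 is a description and no test of the members. In the Platr18 set Sox10 had at most 1 read in any library. Sox8, the third SoxE gene, had 0.517 and 0.55 CPM after TGFβ and 0 CPM in NMuMG, at least 9.73-fold higher, and did not reach the filter.

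Gene lists here and below were chosen with earlier results of these data known, so their counts, medians and p-values are descriptions. Glial and melanocyte genes did not rise as a group beside Sox10. Of 22 such genes 7 were tested, with 1 called higher and 2 lower after TGFβ and a median log2 fold change of -0.53, beside -0.08 over all genes. Pmp22, a peripheral myelin protein, rose from a mean of 0.198 to 3.9 CPM (log2 fold change 2.03, SE 0.098, adjusted p = 2.72e-10, here and below from limma with Benjamini-Hochberg adjustment over 17106 genes). Erbb3, the neuregulin receptor, fell (-2.42, SE 0.106, adjusted p = 9.46e-11), and so did Gjb1, a gap junction protein of Schwann cells and epithelia (-3.38, SE 0.0788, adjusted p = 1.11e-13). The 8 Schwann cell and melanocyte defining markers summed to 103 to 108 CPM after TGFβ and 75.2 to 77 CPM in NMuMG, nearly all of it Mbp, at means of 104 and 75 CPM. Cdh19, Dct and Tyr had at most 3 reads in each TGFβ library. Their part in the Sox10 values was not tested.

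Sox9 (chr11:112782224-112787760, plus strand) fell after TGFβ and was highest in the tumor-derived lines. The NMuMG libraries had 15.5 and 16.2 CPM, TGFβ 5.88 and 5.7, E1KD 16.6 and 14.2, M1P 19.5 and 18.9, and L1P 21.2 and 21.8 CPM. The order was L1P, M1P, NMuMG, E1KD and TGFβ, and between neighbours the libraries overlapped between NMuMG and E1KD alone. On the log2 scale M1P lay above E1KD by 0.31 and L1P above M1P by 0.15 (SE 0.111 for each), neither called. The tumor-derived lines were not tested against NMuMG. TGFβ lay 2.74-fold below NMuMG, a log2 difference of -1.31 (SE 0.111), which was called. E1KD differed from NMuMG by -0.04 (SE 0.111), by -0.15 without E1KD replicate 1 and by 0.06 without E1KD replicate 2. Against TGFβ, E1KD was higher by 1.27 (SE 0.111) and called, but by 0.94 with median-of-ratios scaling, short of the limit on size, and the call was also lost with the 2 conditions fitted alone.

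In the Platr18 set Sox9 had 4.15 and 3.13 CPM with the empty vector, 2.73 and 2.68 in clone 12, 2.9 and 2.93 in clone 16, 4.85 and 5.73 in E1KD SCR and 4.34 and 5.22 CPM in E1KD Platr18 KD. Both clones lay below the empty vector, and both E1KD lines above it, without overlap. Neither clone nor E1KD SCR was called against the empty vector, and E1KD Platr18 KD was not tested against it. The log2 difference of E1KD SCR from the empty vector was 0.44 (SE 0.111), and that of Platr18 KD from SCR -0.12 (SE 0.111) with overlapping libraries. Of 16 cartilage genes linked to Sox9, Sox5 and Sox6, 3 were tested. None was called after TGFβ, while with median-of-ratios scaling Col27a1 was. In E1KD Chst11, a chondroitin sulfotransferase, rose from 0.00943 to 29.7 CPM (log2 fold change 4.93, SE 0.0792, adjusted p = 3.5e-15). Chst11 fell again in M1P, to 0.123 CPM (adjusted p = 2.07e-14), and was higher in L1P than in M1P, at 1.88 CPM (log2 fold change 1.35, adjusted p = 3.13e-08). It also fell from 4.87 CPM in E1KD SCR to 0.034 CPM with Platr18 KD (log2 fold change -2.51, SE 0.0792, adjusted p = 4.52e-11).

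Sox4 was by far the highest member per length, at a mean of 33.2 CPM per kb of exon in NMuMG, followed by Sox9 at 3.83, Sox13 at 0.939 and Sox6 at 0.433 CPM per kb. This SoxC gene (chr13:28948919-28953713, minus strand) had 155 and 164 CPM in NMuMG, 278 and 304 after TGFβ, 162 and 149 in E1KD, 201 and 194 in M1P, and 234 and 235 CPM in L1P. TGFβ was highest, then L1P and M1P, and the NMuMG and E1KD libraries overlapped. The log2 difference between TGFβ and NMuMG was 0.87 (SE 0.0634), which is under the limit on size, but 1.03 and called with median-of-ratios scaling. E1KD lay below TGFβ, with a log2 difference of -0.90 (SE 0.0634) that was not called, but -1.09 and called with equal sums and -1.26 and called with median-of-ratios scaling. With the empty vector Sox4 had 198 and 192 CPM, in the clones between 186 and 197, and in E1KD SCR 135 and 138 CPM, a log2 difference from the empty vector of -0.51 (SE 0.0634). The E1KD Platr18 KD libraries, at 131 and 136 CPM, overlapped those of E1KD SCR. Gm26735, a long noncoding gene on the opposite strand of Sox4, had at most 1.06 CPM, and whether counting used strand is not stated in the sources used here.

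Sox12 (chr2:152393611-152398063, minus strand), a SoxC gene like Sox4, was read in E1KD and hardly elsewhere in the first set. E1KD libraries had 1.71 and 1.94 CPM (87 and 105 reads), and those of NMuMG, TGFβ and L1P 0 CPM. In M1P it had 1 read in 1 library and none in the other. E1KD was at least 33.3-fold above NMuMG, a log2 difference of 1.50 (SE 0.0461), and 1.44 to 1.56 when either E1KD library was left out. Sox12 passed the filter through the E1KD libraries alone, as Sox10 did through those of TGFβ. The size needed for their calls followed from that filter, so the counts of members given next are descriptions only. Between E1KD and NMuMG 2 of the 6 members tested were called (Sox12 higher, Sox6 lower), beside 9.44% of all genes. Between E1KD and TGFβ 3 were called (Sox12 and Sox9 higher, Sox10 lower), beside 23.3%. Between M1P and E1KD Sox12 alone was called, at -1.49 (SE 0.0461), beside 3.59%; the ratio of E1KD to M1P was 209, with a 95% interval of 36.9 to 8261 that covers counting error only. These shares of all genes depend on the E1KD libraries: without E1KD replicate 2, the genes called went from 1614 to 3074 of 17106 against NMuMG and from 614 to 2021 for M1P, and without replicate 1 to 1412 and 568.

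In the Platr18 set Sox12 was read in the E1KD lines alone, at 0.244 and 0.159 CPM (18 and 10 reads) in E1KD SCR and 0.0543 and 0.0681 CPM (8 and 10 reads) in E1KD Platr18 KD. The SCR libraries lay above the KD libraries, 3.29-fold (counting interval 1.79 to 6.42), and at least 4.76-fold above the empty vector, where both libraries had 0 CPM. Its log2 difference between E1KD SCR and the empty vector was 0.26 (SE 0.0461), not called, and 1.58 and called with a pseudocount of 0.1. The log2 difference of E1KD from its control was larger in the first set by 1.23 (SE 0.0652). Called for this contrast were 3.51% of genes (601 genes, a count that depends on the E1KD libraries). Sox12 had 0 CPM in NMuMG and with the empty vector, so the contrast only sets the E1KD level against that of E1KD SCR. Levels were not compared between the sets and both folds are lower limits, so it cannot decide whether the effects differed. The vector, the scrambled shRNA and the set cannot be told apart in it.

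Genes linked to SoxC factors in neurons and progenitors split in direction. Of 12, 8 were tested. In E1KD 2 rose: Nes, the neural progenitor filament nestin, from 0.0925 to 289 CPM (log2 fold change 8.05, SE 0.0681, adjusted p = 7.92e-18), and Tead2, a Hippo pathway transcription factor, from 0 to 43.5 CPM (5.46, SE 0.106, adjusted p = 1.81e-14). The same comparison in the Platr18 set gave 6.68 for Nes (adjusted p = 1.03e-16) and 5.22 for Tead2 (adjusted p = 5.22e-14), while Dbn1 (-1.43, adjusted p = 3.33e-07) and Map2 (-1.17, adjusted p = 4.57e-07) were lower, which made 2 higher and 2 lower of 8. TGFβ gave 3 higher and 1 lower: Marcksl1 rose by 2.00 (adjusted p = 1.27e-11), Nes by 1.97 (adjusted p = 7.64e-12) and Dbn1, the actin-binding drebrin, by 1.70 (adjusted p = 2.26e-08), while Stmn1, a microtubule destabilizer, fell by 1.75 on the log2 scale (adjusted p = 6.97e-09). Map2, a dendritic microtubule protein, was at 12.1 CPM in clone 16 and 0.581 CPM in clone 12 (log2 fold change 3.05, SE 0.104, adjusted p = 2.89e-11).

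**Figure D2:**
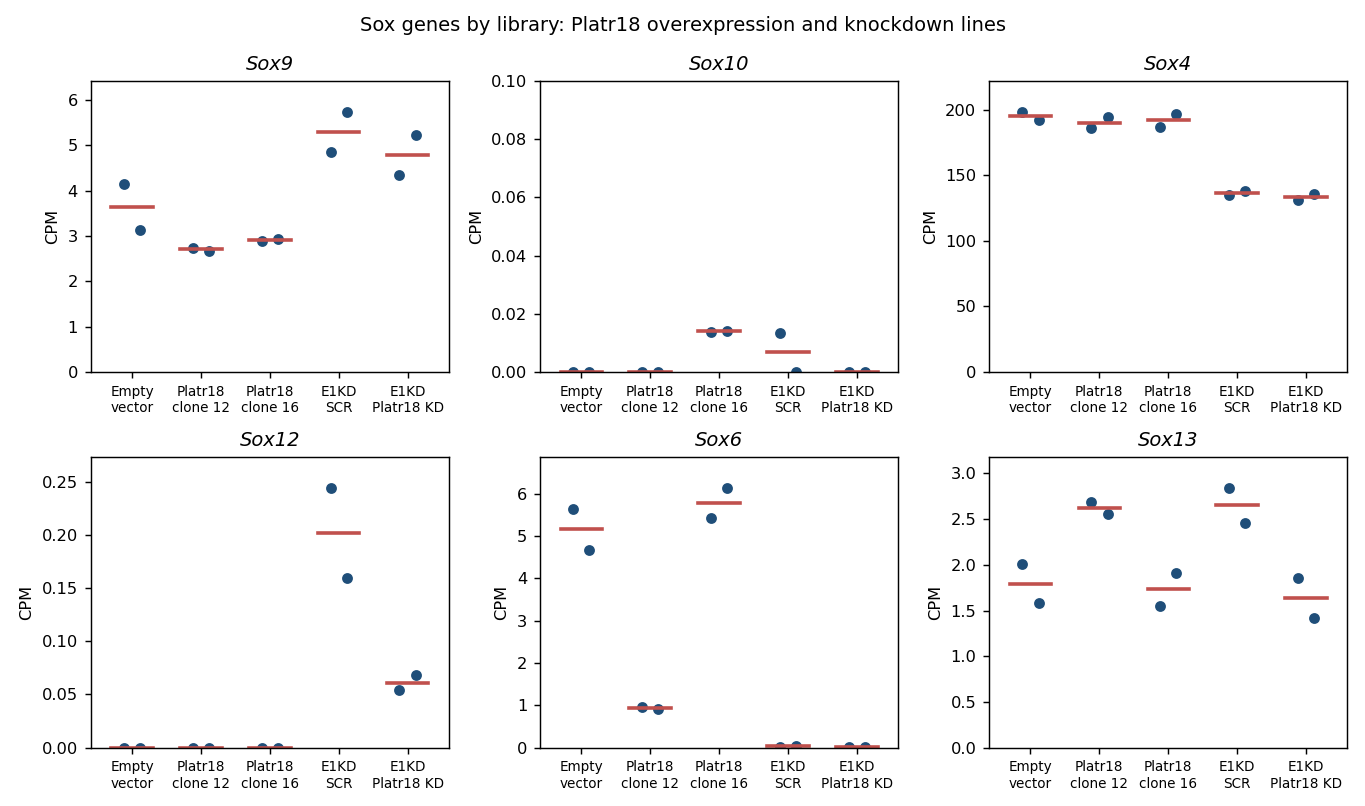
CPM (linear axis from 0, own scale per gene) of the same 6 Sox genes in each library of the empty vector, clones 12 and 16, E1KD SCR and E1KD Platr18 KD. Points are libraries and lines the means of 2; Sox6 was near 1 CPM in clone 12, at 5.43 and 6.14 CPM in clone 16, and at most 0.0318 CPM in both E1KD lines, while Sox10 had at most 1 read.

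Sox6, a SoxD factor of cartilage and neural progenitors (chr7:115470872-116038796, minus strand), had almost no reads in E1KD and in the lines derived from it. NMuMG libraries had 6.11 and 6.73 CPM (345 and 357 reads), TGFβ 0.885 and 1.02, E1KD 0.0197 and 0.037, M1P 0 and 0.0177, and L1P 0.0196 and 0.0388 CPM. NMuMG stood above TGFβ, and TGFβ above the E1KD-derived lines, which had at most 2 reads per library. NMuMG lay 227-fold above E1KD, with 3 reads in E1KD and a counting interval of 76.4 to 1090, and 6.75-fold above TGFβ (interval 5.52 to 8.29). The log2 differences were -2.85 (SE 0.0761) in E1KD and -1.93 (SE 0.0761) after TGFβ, both called. With each of the 4 libraries left out in turn the first was -2.91 to -2.79. Between E1KD and TGFβ the difference of -0.92 (SE 0.0761) was not called, but was -3.03 with a pseudocount of 0.1 and -1.05 with equal sums, both called.

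The empty vector libraries had 5.64 and 4.68 CPM of Sox6, clone 12 had 0.966 and 0.905, clone 16 had 5.43 and 6.14, E1KD SCR had 0.0271 and 0.0318 and E1KD Platr18 KD 0.00679 and 0.0136 CPM. The clones thus parted: clone 16 overlapped the empty vector, while clone 12 lay 5.52-fold below it (counting interval 4.57 to 6.74). Clone 12 differed from the empty vector by -1.67 (SE 0.0761), called, beside 3.65% of all genes, and clone 16 by 0.14 (SE 0.0761), not called, beside 1.78%. Between the clones the log2 difference was 1.81 (SE 0.0761), higher in clone 16, beside 4.38% of genes called. Taken as a pair against the empty vector they gave -0.76 (SE 0.0659), and no member was called, beside 1.46%. With a pseudocount of 0.1 the pair's value was -1.09 and called. E1KD SCR lay 175-fold below the empty vector (counting interval 68.8 to 651, 4 reads in E1KD SCR), a log2 difference of -2.58 (SE 0.0761), the one call among the members there, beside 5.98%. With Platr18 KD no member was called, beside 1.48%, and Sox6 then had 3 reads in all. The antisense genes Sox6os and RP24-112I14.3 that overlap Sox6 were at 0 CPM in every library.

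Sox13, the third SoxD gene (chr1:133382303-133424377, minus strand), was highest in the lung metastasis line. It had 3.63 and 4.47 CPM in NMuMG, 2.6 and 2.55 after TGFβ, 5.96 and 4.75 in E1KD, 5.41 and 6.2 in M1P and 12.2 and 12.5 CPM in L1P. L1P lay above M1P without overlap, 2.13-fold, and the M1P and E1KD libraries overlapped. The log2 difference of L1P from M1P was 0.98 (SE 0.124), just under the limit, and no member was called there, beside 1.21% of genes. It was called with a pseudocount of 0.1 (1.08), with equal sums (1.01) and without M1P replicate 2 (1.06). Leukocyte markers summed to 5.81 to 6.3 CPM in M1P and 6.91 to 7.17 CPM in L1P, and among them the myeloid gene Lyz2 rose from 0.221 CPM in E1KD to 3.05 CPM in M1P (log2 fold change 1.73, adjusted p = 3.19e-10) and had 4.65 CPM in L1P. Csf1r, a macrophage receptor, was lower in M1P than in E1KD (log2 fold change -1.04, adjusted p = 8.97e-06), a call lost without E1KD replicate 1. Cd68, a macrophage marker, had 2.68 CPM in M1P and 1.93 CPM in L1P, while Ptprc and Cd3e had at most 3 reads in each L1P library. Sftpc, Sftpb, Sftpa1, Scgb1a1 and Scgb3a2 of the lung epithelium had at most 3 reads in each library of every condition. Foxj1, the sixth lung marker, made up the rest of that list. The list summed to 24.9 to 25 CPM in M1P and 31.4 to 31.9 CPM in L1P. It was higher in NMuMG (44.3 to 47.3 CPM) and in E1KD (34.2 to 38.8 CPM). The part of these markers was not tested. In the Platr18 set Sox13 lay between 1.42 and 2.84 CPM, and with Platr18 KD it was lower than in SCR without overlap, at 1.85 and 1.42 against 2.84 and 2.46 CPM (log2 difference -0.47, SE 0.124, not called).

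Sox5, the SoxD partner of Sox6, was too low to be tested but had its reads mostly in E1KD and E1KD SCR. It had 6 and 3 reads in E1KD (0.118 and 0.0554 CPM) and 9 and 11 reads in E1KD SCR (0.122 and 0.175 CPM). NMuMG had 1 read, L1P 1 read, E1KD Platr18 KD 1 read in each library, and the empty vector 1 read. Clone 16 had 3 reads, all in replicate 1, as many as E1KD replicate 2. E1KD SCR exceeded E1KD Platr18 KD 21.8-fold, with a counting interval of 5.22 to 190, and the empty vector 21.6-fold (3.32 to 861). The ratio of E1KD to NMuMG was 9.2 (1.3 to 412). Antisense and intronic genes inside Sox5 had at most 0.0167 CPM. Sox7 had at most 1 read per library and Sox11 at most 2, so that no difference was detectable at this depth.

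**Figure D3:**
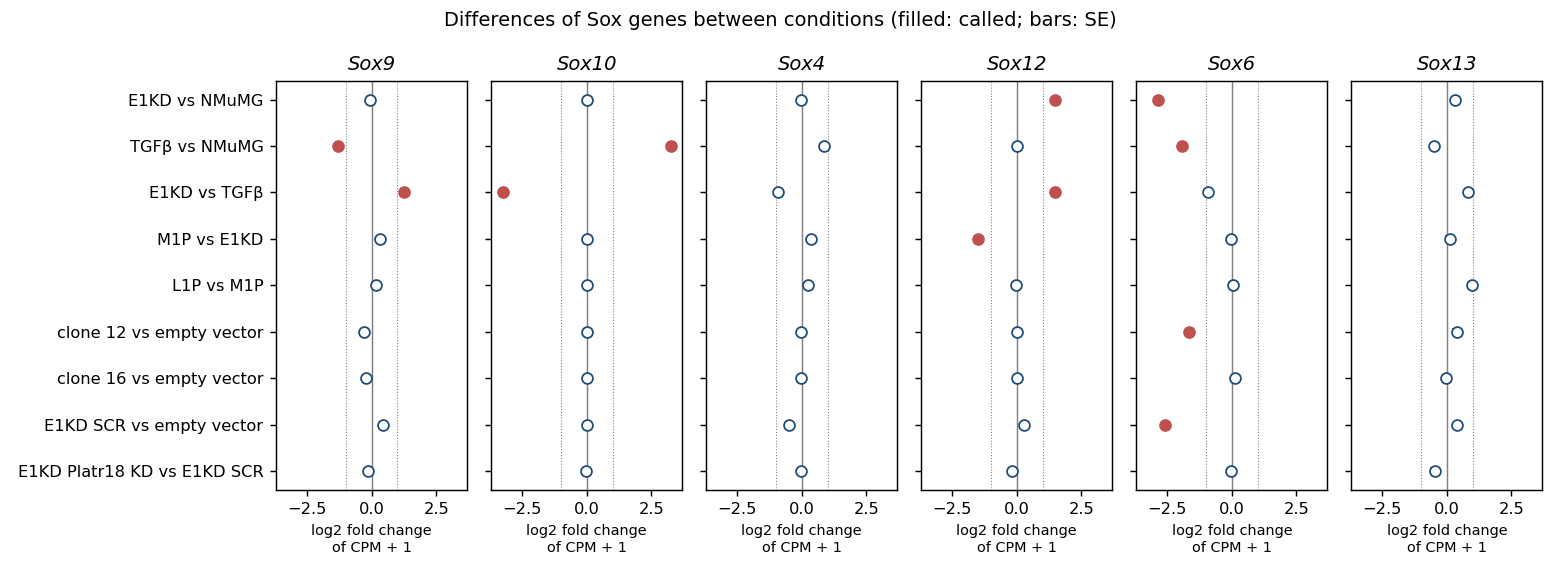
Differences of the 6 measured Sox genes in 9 comparisons, as log2 fold change of CPM + 1 (horizontal axis, first condition minus second); bars are SE, often smaller than the points, filled points are called and dotted lines mark a log2 fold change of 1 in size. Sox6 was called in 4 of the comparisons, all downward, and Sox4 and Sox13 in none.

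As the plot of differences by gene shows, the members did not move as one. Medians over the 6 tested were -0.02 in E1KD (0.17 over all genes), -0.25 after TGFβ (-0.08) and 0.05 in M1P against E1KD (-0.17). The comparisons of E1KD and TGFβ share the NMuMG libraries. By the correlation of condition means (10 conditions, mean of each set removed), the genes most like Sox6 were Trpa1, a cation channel (Pearson r 0.977), RP23-44N5.6 (0.977) and Thnsl2 (0.969). For Sox9 they were RP23-396C19.6 (0.978), the ubiquitin ligase gene G2e3 (0.961) and Gclc of glutathione synthesis (0.958). These points share libraries and depth. For Sox10 the rule gave Prr9, Mmp12 and Igha (each 0.9999) and for Sox12 Msx1 (0.998), Mal (0.997) and B3galt1 (0.997), but as each member was read almost wholly in 1 condition of the first set, that condition fixes the value.

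**Figure D4:**
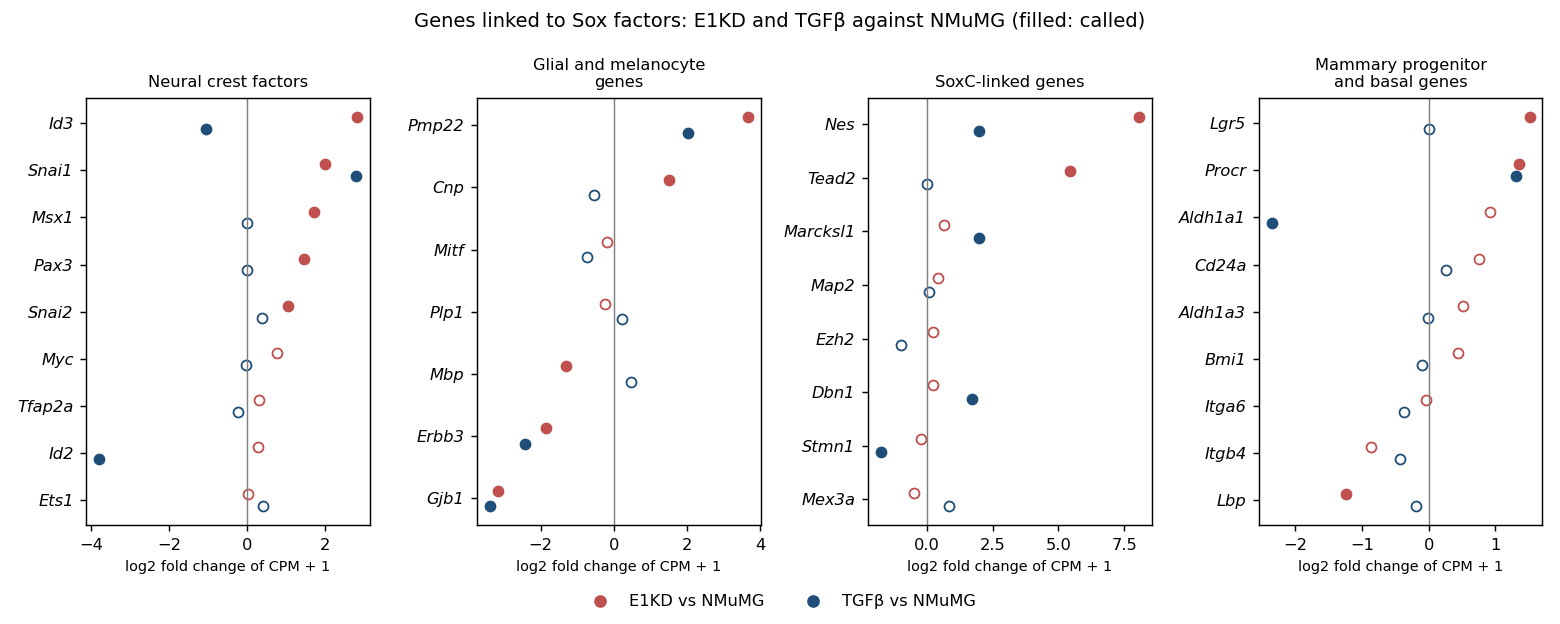
Log2 fold change of CPM + 1 (horizontal axis) of the tested genes of 4 lists in E1KD (red) and after TGFβ (blue), each against NMuMG; filled points are called. Nes reached 8.05 in E1KD and 1.97 after TGFβ, and Id3 moved up in E1KD (2.81) and down after TGFβ (-1.05).

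The list of neural crest factors was chosen with earlier results of these data known, so its counts are descriptions and no independent test. Of its 19 genes, 9 were tested in E1KD against NMuMG. Of these, 5 were called higher and none lower, beside 9.44% of all genes called in either direction. The median was 1.03, beside 0.17 over all genes. Without E1KD replicate 1, or with median-of-ratios scaling, 4 were, as Snai2 was lost. Id3, an inhibitor of basic helix-loop-helix factors, rose from 7.91 to 61.7 CPM (log2 fold change 2.81, SE 0.127, adjusted p = 1.83e-10). The EMT factor Snai1 rose from 0.275 to 4.11 CPM (2.00, SE 0.0845, adjusted p = 7.91e-11) and Pax3 from 0 to 1.77 CPM (1.47, SE 0.0796, adjusted p = 1.41e-09). The homeobox gene Msx1 went from 0 to 2.29 CPM (1.72, SE 0.0493). Against 0 CPM, the 1 CPM of the filter already met the size needed for the call of Msx1. That call is thus a description and no test, and the count of 5 includes it. Msx1 was at 0 CPM in M1P (log2 difference from E1KD -1.72, with the same limit), where Sox12 had 1 read. After TGFβ 1 rose, Snai1 (2.78, adjusted p = 1.82e-12), and 2 fell, Id2 (-3.79, adjusted p = 2.1e-14) and Id3 (-1.05, adjusted p = 5.8e-06), the latter not called with median-of-ratios scaling. In the Platr18 set E1KD SCR had 2 of 9 higher than the empty vector, Id3 (1.81, adjusted p = 3.99e-08) and Pax3 (1.65, adjusted p = 5.61e-10). Between the clones 3 were lower in clone 16, namely Id3 (-1.60, adjusted p = 2.14e-07), Snai2 (-1.14, adjusted p = 5.37e-08) and Myc (-1.02, adjusted p = 1.7e-07).

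Glial and melanocyte genes gave 2 higher and 3 lower of 7 in E1KD, where Sox10 had no reads. Pmp22 rose to 14.1 CPM (log2 fold change 3.66, SE 0.098, adjusted p = 4.63e-13) and Cnp, a myelin enzyme, to 11.1 CPM (1.50, SE 0.192, adjusted p = 1.38e-05), while Gjb1 (-3.16, adjusted p = 2.34e-13), Erbb3 (-1.85, adjusted p = 2.65e-09) and Mbp (-1.31, adjusted p = 6.67e-10) fell. Erbb3 then rose from 1.28 CPM in E1KD to 108 CPM in M1P (log2 fold change 5.58, SE 0.106, adjusted p = 7.24e-14). Of 16 mammary progenitor and basal genes, 9 were tested, and 2 rose and 1 fell in E1KD. Lgr5, a Wnt pathway receptor of stem cells, rose from 0 to 1.9 CPM (1.51, SE 0.117, adjusted p = 7e-08) and Procr from 2.29 to 7.5 CPM (1.35, SE 0.108, adjusted p = 9.96e-08). Lbp fell by 1.23 on the log2 scale (adjusted p = 0.000156), though it was not called without E1KD replicate 2. After TGFβ Procr rose (1.30, adjusted p = 1.04e-07) and Aldh1a1, an aldehyde dehydrogenase used as a progenitor marker, fell by 2.35 on the log2 scale (adjusted p = 2.35e-09), where Sox9 fell too.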

How the data were processed

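RNA of 20 libraries (10 conditions, 2 each) was sequenced on an Illumina instrument. Per the labels and the study's methods, the authors aligned reads with Bowtie2 2.2.5 (build GRCm38.p6), assigned them in Partek by expectation-maximization to genes of annotation M18, and deposited CPM values of 54986 genes, each raised by 0.0001, which was subtracted for the levels printed here. Low values were steps of 1 read; 89.4% to 90.5% (first set) and 96.9% to 97.5% (second set) were whole within 0.02 reads, so no count model was used. The authors' own comparisons were not used.

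Values were fitted as log2(CPM + 1) with limma 3.58.1 in R 4.3.3 (10 condition means, 20 libraries, eBayes with trend, 10 residual degrees of freedom), over the 17106 genes that reached 1 CPM in 2 or more libraries. Simulated data with known changes were used to check the fit. Fold intervals are exact 95% intervals of read counts and cover counting error only. Members and gene lists were chosen with earlier results of these data known. Named genes are the members, the targeted genes, at most 4 called genes per list and comparison with the largest change and no overlap between groups, and the 3 genes most like each called member; Mbp in E1KD, genes named for a low or lost value and the 11 other Sox genes fall outside it. Promoters were found for 6 of 9 members. Tables and figures used Python 3.11.15, pandas 2.3.3 and matplotlib 3.10.9. Alternatives were another pseudocount, filter, scaling or fit, the replicate block, and each library left out. Results for some single genes are left out here.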

Additional observations from a re-analysis of the deposited data

Results flagged for a closer look

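For Sox12, the contrast between the sets of libraries was called: E1KD minus NMuMG exceeded E1KD SCR minus empty vector by 1.23 on the log2(CPM + 1) scale (SE 0.0652). Both controls had 0 CPM, so the contrast only sets the level in E1KD against that in E1KD SCR. It cannot decide whether the silencing effect differed. The members were chosen with their values known, so the value of 1.23 is a description. For Sox6, the Platr18 clones differed by 1.81 (SE 0.0761), higher in clone 16, whose libraries had 5.43 and 6.14 CPM against 0.966 and 0.905 CPM in clone 12.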

How the results depend on the processing

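Where a mean of 5 CPM or more was required, which keeps Sox4 and Sox9 of the members, 0 members were called in E1KD against NMuMG, M1P against E1KD, clone 16 against clone 12, E1KD SCR against the empty vector and the difference of the E1KD effect between the sets, and 1 in each of TGFβ against NMuMG and E1KD against TGFβ. A pseudocount of 0.1 gave 5 calls in E1KD against TGFβ (3 in the fit reported), 1 in L1P against M1P (0), 1 for the pair of clones (0) and 2 in E1KD SCR against the empty vector (1). Equal sums gave 5 in E1KD against TGFβ and 1 in L1P against M1P. Leaving out each library gave 0 to 1 calls in L1P against M1P, the 1 being Sox13 without M1P replicate 2, and kept the other counts. With the replicate number as a block, 2 members were called in E1KD and 3 after TGFβ, and the block changed no call. Whether same-numbered libraries were prepared together is not given in the labels. The correlations of their deviations lay between -0.395 (E1KD and TGFβ) and 0.287 (the clones). With the numbers of E1KD crossed, an alternative added after the data were seen, 3 members were called against TGFβ. Over all genes, the share of calls that were higher moved with scaling, from 68.3% to 55% (equal sums) and 52.6% (median of ratios) in E1KD against NMuMG, from 73.6% to 63.1% and 50.2% in E1KD against TGFβ, from 32.2% to 48.5% and 50.4% in M1P against E1KD and from 43.3% to 43.6% and 54.5% after TGFβ. Without E1KD replicate 1 the share was 52.5% against NMuMG, 59.3% against TGFβ and 48.6% for M1P; without replicate 2 it was 85.2%, 83.6% and 9.35%. Of single members' log2 values, 640 moved by less than the replicate spread under an alternative and 152 by more, and no called value changed sign. Depth limits Sox5, Sox7 and Sox11, with at most 11, 1 and 2 reads in a library.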
